A study of Mus musculus with 8 samples.

Results

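The 9 genes described here encode surface proteins by which mouse hematopoietic stem cells (HSCs) and early progenitors are recognised and sorted: Kit, Ly6a, Slamf1, Cd48, Procr, Tek, Cd9, Cd34 and Flt3. They were chosen by symbol, were present in every deposited expression table, and make up 9 of the 15142 genes listed in all 3 tables. All 9 were among the 11347 genes tested, that is, at 1 FPKM (reads per gene scaled to transcript length and to library depth) or more in at least 2 libraries. The study asked how HSCs respond to anemia. Wild-type C57BL/6 mice of 8 to 12 weeks, of both sexes, received either PBS or phenylhydrazine (PHZ), a drug that lyses red blood cells. PBS is the treatment that the labels give for the controls; the study's text calls these mice untreated. PHZ was given as 2 intraperitoneal injections of 60 mg/kg on consecutive days, and sorting took place on day 3 after the second. RNA-seq was made from 3 samples of HSCs from the bone marrow of PBS-treated mice (control BM HSC), 3 from the marrow of PHZ-treated mice (PHZ BM HSC) and 2 from the spleen of PHZ-treated mice (PHZ SP HSC). No sample of spleen HSCs from untreated mice was analysed here, so in the spleen the organ and the treatment cannot be told apart when it is compared with control marrow. The labels do not say whether each sample came from its own animal, so the p-values measure only the spread between these samples, which may be technical.

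In the marrow, HSCs are found among the cells that lack lineage antigens and carry Sca-1 and c-kit. Within that pool the SLAM family receptor CD150 marks the stem cells, whereas CD48 appears as cells become progenitors, and further proteins such as EPCR and Tie2 enrich for quiescent stem cells. CD34 and Flt3 rise as stem cells of adult mice turn into multipotent progenitors. The study's methods give the HSC gate as lineage-Sca-1+c-kit+CD150+CD48-/low, with lineage antibodies to Ter119, B220, Gr-1, CD2, CD3 and CD8. That gate was set on protein, so the mRNA of Kit, Ly6a, Slamf1 and Cd48 was measured in cells already chosen for the protein. For marrow the methods also state an enrichment on c-kit beads before sorting; for spleen this is not stated.

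Each library held between 8216167 and 13199736 reads on the listed genes, of which Rn45s, the ribosomal RNA precursor, took 43.3% to 48.6%. Libraries of 1 group correlated at Pearson's r of 0.903 to 0.976 across genes on the log2 scale, with PHZ BM HSC replicates 1 and 2 closest to each other. Even those 2 replicates differed by more than counting noise, at 7.76 in chi-square per degree of freedom. Libraries of different groups correlated at 0.873 to 0.937. Control BM HSC replicate 1 stood apart: it reached 0.903 and 0.914 with the other control libraries, below the 0.937 of control BM HSC replicate 3 with PHZ BM HSC replicate 3. With control BM HSC replicate 1 left out, again 0 of the 9 members were called in any comparison, and the sign of 1, Cd48 between the marrow groups, turned.

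The 9 transcripts fell into an abundant and a scarce group that did not overlap in any library. On the per-length FPKM scale, averaged over the 8 libraries, Ly6a stood highest at 143 FPKM, followed by Kit at 119.8, Cd9 at 73.5, Procr at 59.7 and Cd34 at 43.2. Flt3 at 6.22, Tek at 5.40, Slamf1 at 4.96 and Cd48 at 3.12 were far below. The lowest value among the abundant 5 was 27.1 FPKM for Cd34 and the highest among the scarce 4 was 10.8 FPKM for Flt3. Within the abundant and within the scarce genes, the ranges of neighbours in this order overlapped. Ly6a lay between the 98.1st and 99.3rd percentile of all listed genes in every library and Kit between the 97.8th and 99.0th. Cd48 ranged from the 8.83rd to the 73.3rd, the widest span of the 9. Summed over the 9 genes, the level was 388 to 447 FPKM in control BM HSC, 428 to 453 in PHZ BM HSC and 535 to 540 in PHZ SP HSC. In such bulk samples, fewer cells of a type and less RNA per cell cannot be told apart.

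**Figure D1:**
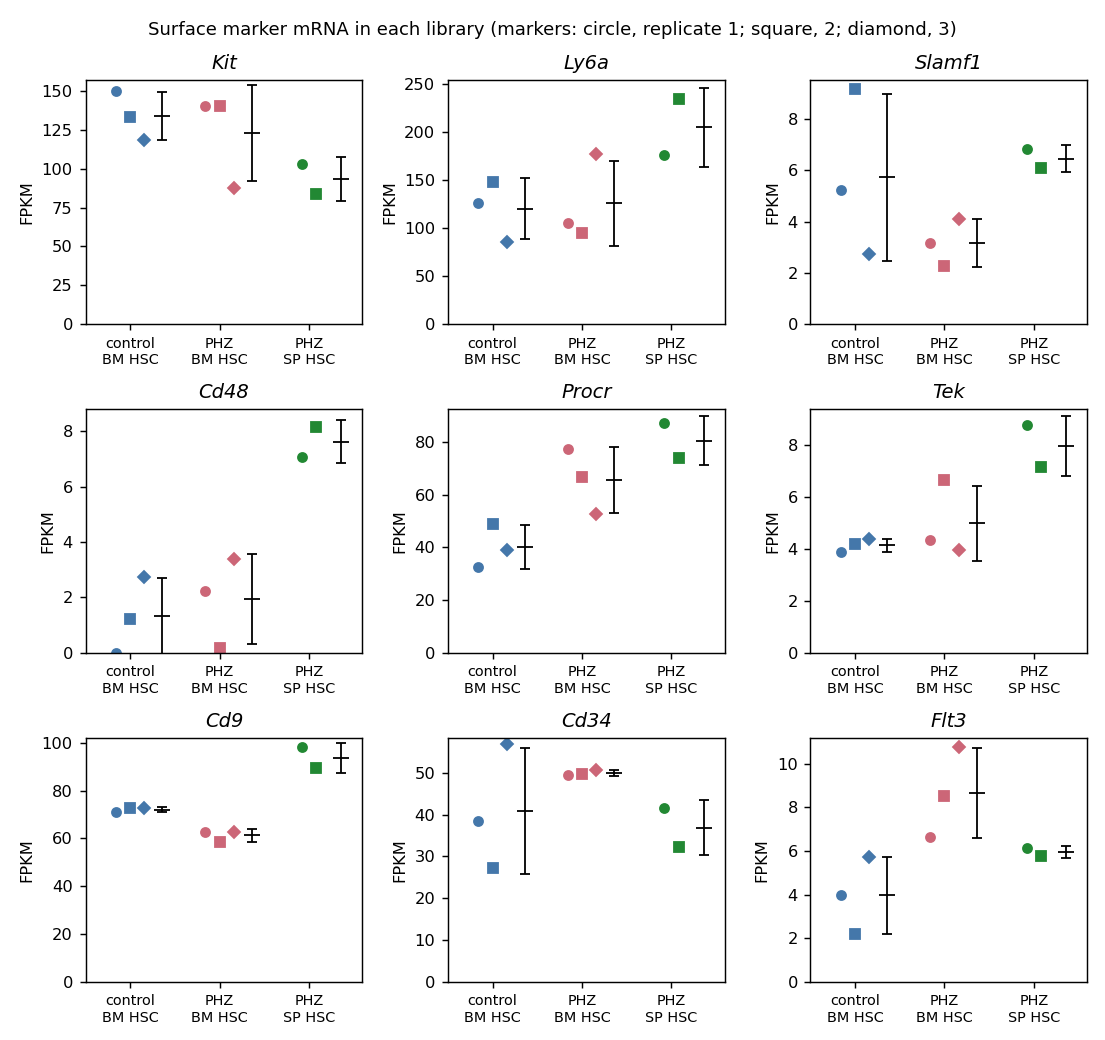
Level of each surface marker gene in FPKM (vertical axes, each starting at 0) in the 3 control BM HSC, 3 PHZ BM HSC and 2 PHZ SP HSC libraries, 1 point per library, with the mean and SD as a bar to the right. Cd48 and Tek are higher in both spleen libraries than in any marrow library, Cd9 is lowest in PHZ BM HSC, and the lower end of the Cd48 bar in control BM HSC is cut at 0.

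In both spleen libraries Procr, Cd48, Tek, Ly6a, Cd9 and Flt3 lay above, and Kit below, every control library. In the 3 PHZ BM HSC libraries Procr and Flt3 lay above and Cd9 below every control library. These differences did not pass the test, and no member did in any comparison. The test was limma on log2(FPKM + 1) with Benjamini-Hochberg adjustment over 11347 genes, at an adjusted p of 0.05. On this scale a fold change understates the change of a scarce gene. In the marrow, for PHZ BM HSC against control BM HSC, 0 of 9 members were called, against 2.74% of all genes tested. At an unadjusted p under 0.05 there were 2 of 9, against 16.6% of all genes, and for 3 of 9 the groups did not overlap, against 23.9%. For PHZ SP HSC against PHZ BM HSC, 0 of 9 were called (0.978% of all genes), 5 had an unadjusted p under 0.05 (13.5%), and 6 did not overlap (34.8%). For PHZ SP HSC against control BM HSC, 0 of 9 were called (0.758% of all genes), 6 had an unadjusted p under 0.05 (15.8%), and 7 did not overlap (28.9%). Fitted instead by limma's voom on the reads recovered from the FPKM values, the calls were 0, 0 and 1, and 2, 5 and 6 members had an unadjusted p under 0.05. The members' median log2 fold changes were 0.19, 0.60 and 0.55 in the order just given, beside medians over all genes tested of 0.01, -0.02 and -0.00. The comparisons share samples, so they are not independent of each other.

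**Figure D2:**
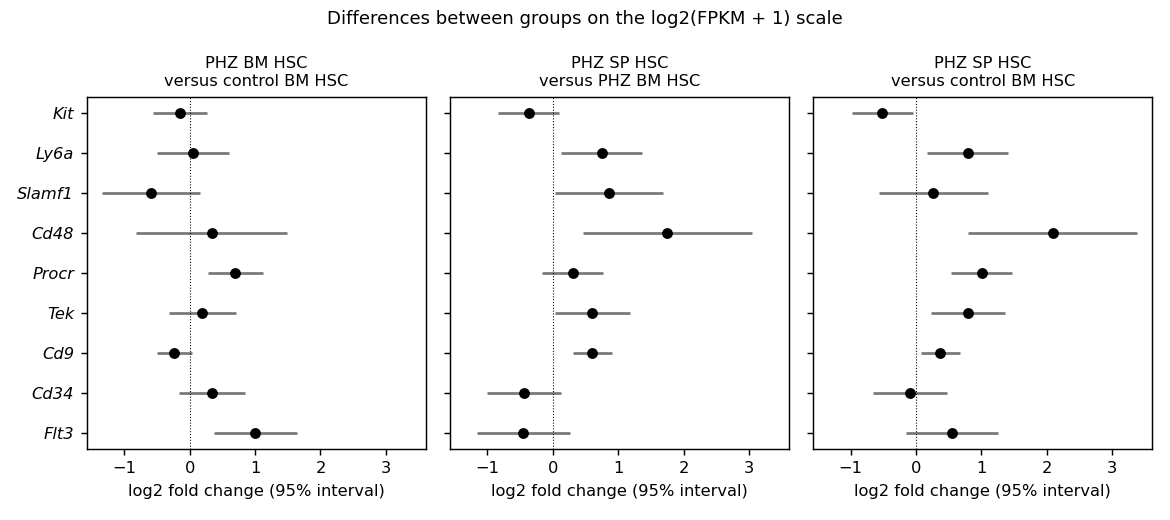
Log2 fold change of each marker (horizontal axis, log2(FPKM + 1) scale) with its 95% confidence interval from limma, in the 3 comparisons. Cd48 has the widest intervals and Cd9 the narrowest, and the intervals of Procr lie above 0 in both comparisons with control BM HSC.

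Kit (chr5:75574987-75656722, plus strand; gene positions are those of RefSeq on GRCm38.p6) encodes c-kit, the receptor for stem cell factor and a gate antigen. Its level was 150.0, 134 and 119 FPKM in the control BM HSC libraries, 141, 141 and 87.7 in PHZ BM HSC, and 103 and 83.6 in PHZ SP HSC. Both spleen libraries lay below every control library, and the third PHZ BM HSC library lay among the spleen values. The log2 fold change of PHZ SP HSC against control BM HSC was -0.52 ± 0.21 (SE; 95% interval -0.99 to -0.05), with an adjusted p of 0.267. Between the marrow groups it was -0.15 ± 0.19, with overlapping values and an adjusted p of 0.749, and leaving out PHZ BM HSC replicate 3 turned it to 0.076. Between spleen and PHZ-treated marrow it was -0.37 ± 0.21 (adjusted p = 0.488), and it was -0.59 without PHZ BM HSC replicate 3 and -0.22 without PHZ SP HSC replicate 2.

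Ly6a (chr15:74994877-74998031, minus strand) encodes Sca-1, the glycolipid-anchored gate antigen. Control BM HSC held 126, 148 and 85.6 FPKM, PHZ BM HSC 105, 95.2 and 177, and PHZ SP HSC 176 and 234. Spleen libraries exceeded all control libraries, but PHZ BM HSC replicate 3 was level with the lower spleen value. The log2 fold change was 0.79 ± 0.28 for PHZ SP HSC against control BM HSC (95% interval 0.17 to 1.40, adjusted p = 0.199), and 0.74 ± 0.28 for PHZ SP HSC against PHZ BM HSC (adjusted p = 0.271). Between the marrow groups it was 0.05 ± 0.25 (95% interval -0.50 to 0.60, adjusted p = 0.951), and it turned to -0.18 without control BM HSC replicate 3 and to -0.23 without PHZ BM HSC replicate 3.

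Part of Ly6a cannot be told from related genes by short reads. Of its 1297 distinct 50-base stretches in the GENCODE M21 transcripts, 19.0% also occur in other genes. Ly6c1, Ly6i, I830127L07Rik and Ly6c2 share the most. The longest stretch shared within the coding sequence covers bases 50 to 129 of 402 and is also found in Ly6i. It is shown because a read from it fits both genes; capitals mark the 80 shared bases, and 20 bases are given on either side.
Ly6a: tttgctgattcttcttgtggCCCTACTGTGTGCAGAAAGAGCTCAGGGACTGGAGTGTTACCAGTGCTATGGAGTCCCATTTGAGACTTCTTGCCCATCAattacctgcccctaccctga
Ly6i: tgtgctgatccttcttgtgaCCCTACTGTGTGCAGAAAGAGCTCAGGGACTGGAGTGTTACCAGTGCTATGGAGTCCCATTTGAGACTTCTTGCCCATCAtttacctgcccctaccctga
Ly6i stood at 0 to 0.870 FPKM in the 8 libraries and Ly6c2 at 0.821 to 4.91. Ly6c1, which shares no such stretch of the coding sequence, was at 0, 0.462 and 0.186 FPKM in control BM HSC, 0.284, 0.127 and 0.415 in PHZ BM HSC, and 6.45 and 1.60 in PHZ SP HSC. All 3 were far below Ly6a in every library. How the counting treated reads that fit several genes is not given in the sources used here, so the level of Ly6a is uncertain to that extent. Of the other members, Cd9 shared 5.67% of its 50-base stretches with other genes, Slamf1 2.23% and Cd34 0.447%, and Flt3 1 of 6127, while Procr, Kit, Cd48 and Tek shared none. Exons of Gm26728 on the opposite strand cover 10.7% of the exon bases of Cd9, and those of the antisense gene Gm16897 cover 2.03% of Cd34. Without strand in the counting, reads of such pairs cannot be told apart.

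Slamf1 (chr1:171767131-171801184, plus strand), which encodes CD150 of the gate, was scarce in all 3 groups. Control BM HSC held 5.25, 9.20 and 2.74 FPKM, PHZ BM HSC 3.18, 2.25 and 4.12, and PHZ SP HSC 6.83 and 6.10. The control libraries spread from 2.74 to 9.20 and overlapped both other groups, and the spleen libraries exceeded each PHZ BM HSC library. For PHZ SP HSC against PHZ BM HSC the log2 fold change was 0.86 ± 0.38 (95% interval 0.03 to 1.69, adjusted p = 0.355). It was -0.59 ± 0.34 between the marrow groups (adjusted p = 0.408), and there it was -0.23 when the second control library was left out and -0.96 when the third was. For spleen against control marrow it was 0.27 ± 0.38 (95% interval -0.57 to 1.10, adjusted p = 0.777), and it was 0.62 when the second control library was left out and -0.10 when the third was.

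Cd48 (chr1:171681245-171705258, plus strand) encodes the SLAM family protein against which the gate was set. Its FPKM was 0, 1.21 and 2.75 in control BM HSC, 2.25, 0.179 and 3.38 in PHZ BM HSC, and 7.07 and 8.16 in PHZ SP HSC. These values rest on 0, 13 and 42 reads, 28, 2 and 52 reads, and 94 and 101 reads, so the marrow levels are imprecise; the 0 allows up to 0.258 FPKM, the level of 3 reads. Both spleen libraries lay above every marrow library. On the log2 scale the spleen exceeded marrow by 2.09 ± 0.59 against control BM HSC (95% interval 0.80 to 3.38, adjusted p = 0.121) and 1.75 ± 0.59 against PHZ BM HSC (95% interval 0.46 to 3.04, adjusted p = 0.219). These sizes depend on the scale: against control BM HSC the value was 3.42 with a pseudocount of 0.1 and 3.74 with voom. Between the marrow groups it was 0.34 ± 0.53 (adjusted p = 0.805) and became 0.87 and 1.20 under those 2 settings. Leaving out single libraries gave -0.17 (the first control library) up to 0.90 (the second PHZ BM HSC library).

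The ratio of Slamf1 to Cd48 mRNA within a library sets the receptor that the gate required against the one that it limited. It was at least 20.3 (with Cd48 at the level of 3 reads), 7.61 and 0.998 in control BM HSC, 1.41, 12.6 and 1.22 in PHZ BM HSC, and 0.966 and 0.748 in PHZ SP HSC. The 12.6 rests on 2 reads of Cd48 and is imprecise. The spleen libraries had the 2 lowest ratios, with control BM HSC replicate 3 next to them. The ratio of Ly6a to Kit was 0.842, 1.11 and 0.720 in control BM HSC, 0.743, 0.676 and 2.01 in PHZ BM HSC, and 1.70 and 2.80 in PHZ SP HSC. Here PHZ BM HSC replicate 3 lay between the spleen libraries and apart from the other marrow libraries.

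Procr (chr2:155751125-155755478, plus strand) encodes EPCR, the endothelial protein C receptor, which is widely used to purify HSCs. It stood at 32.4, 48.8 and 38.8 FPKM in control BM HSC, 77.2, 66.8 and 52.4 in PHZ BM HSC, and 87.0 and 73.9 in PHZ SP HSC. Every library from PHZ-treated mice exceeded every control library, and the 2 groups from treated mice overlapped. The mean was 40.0 ± 8.29 (SD, n = 3), 65.5 ± 12.4 (n = 3) and 80.4 ± 9.26 (n = 2), a ratio of 1.64 for PHZ BM HSC and 2.01 for PHZ SP HSC over control. On the log2 scale these were 0.70 ± 0.19 (95% interval 0.28 to 1.11, adjusted p = 0.0837) and 1.004 ± 0.21 (95% interval 0.54 to 1.47, adjusted p = 0.0582), both short of the threshold. Between spleen and PHZ-treated marrow the log2 fold change was 0.30 ± 0.21 (adjusted p = 0.577), and it was 0.16 without PHZ BM HSC replicate 3 and 0.19 without PHZ SP HSC replicate 1.

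The call on Procr moved with the processing. Against control BM HSC, it passed for PHZ SP HSC with voom (1.03, adjusted p = 0.0439), when genes under 10 reads in any library were dropped (adjusted p = 0.0471) and without PHZ BM HSC replicate 3 (adjusted p = 0.0456). Over the 9 alternatives that keep all libraries, its adjusted p ran from 0.0439 to 0.118, and over those that leave out 1 library, from 0.0456 to 0.306. For PHZ BM HSC it passed in 1 setting, without PHZ BM HSC replicate 3 (0.85, adjusted p = 0.0431).

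Tek (chr4:94739086-94874976, plus strand) encodes Tie2, the angiopoietin receptor carried by quiescent HSCs and by endothelial cells. Its FPKM was 3.86, 4.18 and 4.36 in control BM HSC, 4.33, 6.64 and 3.96 in PHZ BM HSC, and 8.77 and 7.14 in PHZ SP HSC. Both spleen libraries lay above all marrow libraries. The log2 difference of the spleen was 0.80 ± 0.26 against control BM HSC (95% interval 0.23 to 1.37, adjusted p = 0.167) and 0.60 ± 0.26 against PHZ BM HSC (adjusted p = 0.340). Between the marrow groups it was 0.19 ± 0.23 (95% interval -0.32 to 0.70, adjusted p = 0.730), and it ran from 0.0030 without PHZ BM HSC replicate 2 to 0.32 without replicate 3.

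Cd9 (chr6:125460266-125494760, minus strand) encodes a tetraspanin found on HSCs and megakaryocytes, and its fold changes had the smallest standard errors of the 9. It stood at 70.9, 72.7 and 72.7 FPKM in control BM HSC, 62.6, 58.3 and 62.9 in PHZ BM HSC, and 98.3 and 89.3 in PHZ SP HSC. The 3 groups did not overlap, with PHZ BM HSC lowest and PHZ SP HSC highest. The log2 fold change of spleen over PHZ-treated marrow was 0.61 ± 0.14 (95% interval 0.30 to 0.91, adjusted p = 0.0708), and over control marrow 0.37 ± 0.14 (adjusted p = 0.217). Between the marrow groups it was -0.23 ± 0.12 (95% interval -0.50 to 0.04, adjusted p = 0.368).

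Cd34 (chr1:194938821-194961292, plus strand) encodes a sialomucin that adult mouse HSCs of the longest repopulating activity carry at low level and progenitors carry at high level. Control BM HSC held 38.4, 27.1 and 56.9 FPKM, PHZ BM HSC 49.4, 49.6 and 50.7, and PHZ SP HSC 41.6 and 32.2. The control libraries enclosed both other groups, and the spleen libraries lay below the 3 PHZ BM HSC libraries. The log2 fold change was -0.44 ± 0.26 for spleen against PHZ-treated marrow (95% interval -1.003 to 0.13, adjusted p = 0.497; -0.26 without the second spleen library). It was 0.35 ± 0.23 between the marrow groups (adjusted p = 0.490), with 0.092 when the second control library was left out and 0.61 when the third was, and -0.09 ± 0.26 between spleen and control marrow (95% interval -0.66 to 0.48, adjusted p = 0.903). The last turned to 0.18 when the third control library was left out, to 0.089 when the second spleen library was, and to 0.048 with the replicate number as a block.

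Flt3 (chr5:147330741-147400489, minus strand) encodes the receptor tyrosine kinase that appears on multipotent and lymphoid-primed progenitors. Its level was 3.99, 2.18 and 5.72 FPKM in control BM HSC, 6.64, 8.53 and 10.8 in PHZ BM HSC, and 6.15 and 5.76 in PHZ SP HSC. Every library from PHZ-treated mice exceeded every control library, the spleen ones by little over the highest control. PHZ BM HSC exceeded control BM HSC by 1.002 ± 0.29 on the log2 scale (95% interval 0.37 to 1.64, adjusted p = 0.1005). It was 0.55 ± 0.32 for PHZ SP HSC over control BM HSC (adjusted p = 0.438; 0.26 when the second control library was left out) and -0.45 ± 0.32 for PHZ SP HSC against PHZ BM HSC (adjusted p = 0.591; -0.25 with the replicate block and -0.30 when the third PHZ BM HSC library was left out).

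Ratios of an HSC marker to a progenitor marker, taken within each library, set these genes side by side. The ratio of Procr to Cd34 was 0.844, 1.80 and 0.683 in control BM HSC, 1.56, 1.35 and 1.04 in PHZ BM HSC, and 2.09 and 2.30 in PHZ SP HSC. Spleen libraries thus had the highest 2 values, next to control BM HSC replicate 2. For Tek to Flt3 the ratio was 0.968, 1.91 and 0.762 in control BM HSC, 0.652, 0.778 and 0.367 in PHZ BM HSC, and 1.42 and 1.24 in PHZ SP HSC. The spleen libraries exceeded the PHZ BM HSC libraries and lay within the control range.

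**Figure D3:**
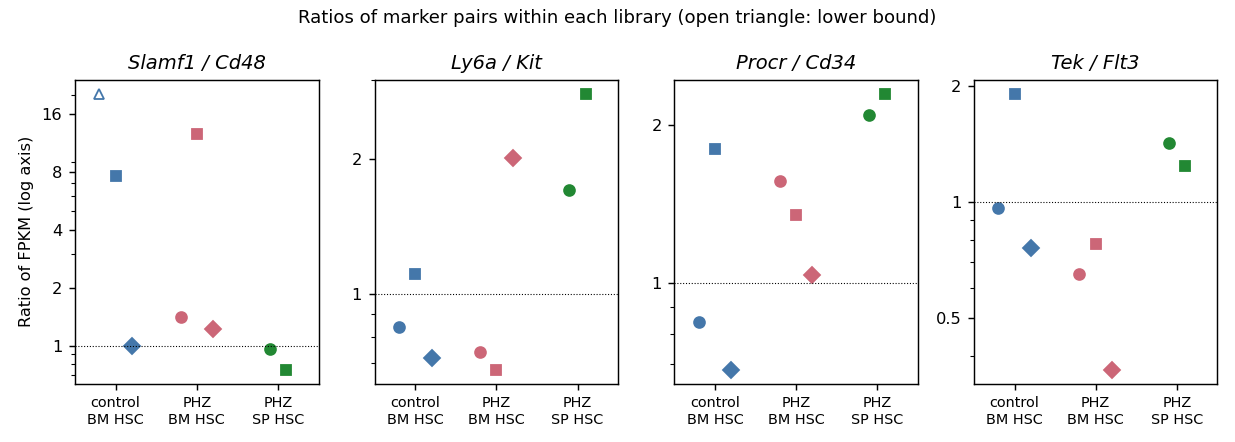
Ratio of FPKM between 2 markers within each library (log axes, dotted line at 1), 1 point per library, for Slamf1 over Cd48, Ly6a over Kit, Procr over Cd34 and Tek over Flt3. The open triangle is a lower bound, since Cd48 had 0 reads there; the PHZ SP HSC libraries have the lowest Slamf1 to Cd48 ratios (0.966 and 0.748) and the highest Procr to Cd34 ratios (2.09 and 2.30).

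Across the 8 libraries, which include the differences between groups, Slamf1 and Cd34 ran in opposite directions (Pearson's r = -0.88 on log2 values) and Cd34 and Flt3 ran most alike (r = 0.76). Kit ran opposite to Cd48 (r = -0.84) and Ly6a (r = -0.76), while Procr ran with Tek (r = 0.74). These 8 points share groups, sorting and sequencing, and the correlations are descriptions only. The promoters of the first 3 genes are shown for that reason, each as the 250 bases before a RefSeq start site on GRCm38.p6, read on the gene's strand, with motif matches in capitals: chr1:171766882-171767131 (+) for Slamf1, chr1:194938571-194938820 (+) for Cd34 and chr5:147400490-147400739 (-) for Flt3.
Slamf1: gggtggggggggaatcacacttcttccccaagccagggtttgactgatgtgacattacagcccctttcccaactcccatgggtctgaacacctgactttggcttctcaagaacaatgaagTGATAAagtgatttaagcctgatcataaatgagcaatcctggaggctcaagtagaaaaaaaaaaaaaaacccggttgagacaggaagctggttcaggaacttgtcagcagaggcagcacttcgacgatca
Cd34: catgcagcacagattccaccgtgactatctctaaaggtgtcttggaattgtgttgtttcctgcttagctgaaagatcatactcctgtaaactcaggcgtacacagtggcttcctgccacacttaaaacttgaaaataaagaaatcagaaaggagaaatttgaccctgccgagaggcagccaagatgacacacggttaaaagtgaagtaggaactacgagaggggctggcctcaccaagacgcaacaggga
Flt3: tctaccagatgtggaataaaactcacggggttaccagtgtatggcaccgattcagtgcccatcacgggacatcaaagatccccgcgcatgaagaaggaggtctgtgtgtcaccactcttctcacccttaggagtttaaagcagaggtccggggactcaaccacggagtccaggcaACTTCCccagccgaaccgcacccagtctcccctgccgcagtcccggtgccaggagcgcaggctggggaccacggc
Letter strings of 3 factors were searched on both strands. AGATAA or TGATAA, the core of a GATA site, occurred in the Slamf1 window and in 16.6% of 32851 RefSeq promoters of the same length. GGAAGT, an ETS core, occurred as its reverse complement in the Flt3 window and in 19.7% of promoters. TGTGGT, a RUNX core, occurred in none of these 3 windows and in 14.0% of promoters. Of the 9 members 8 had an entry in the promoter table, Ly6a being the one without. A match is a string of letters, not a bound site.

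**Figure D4:**
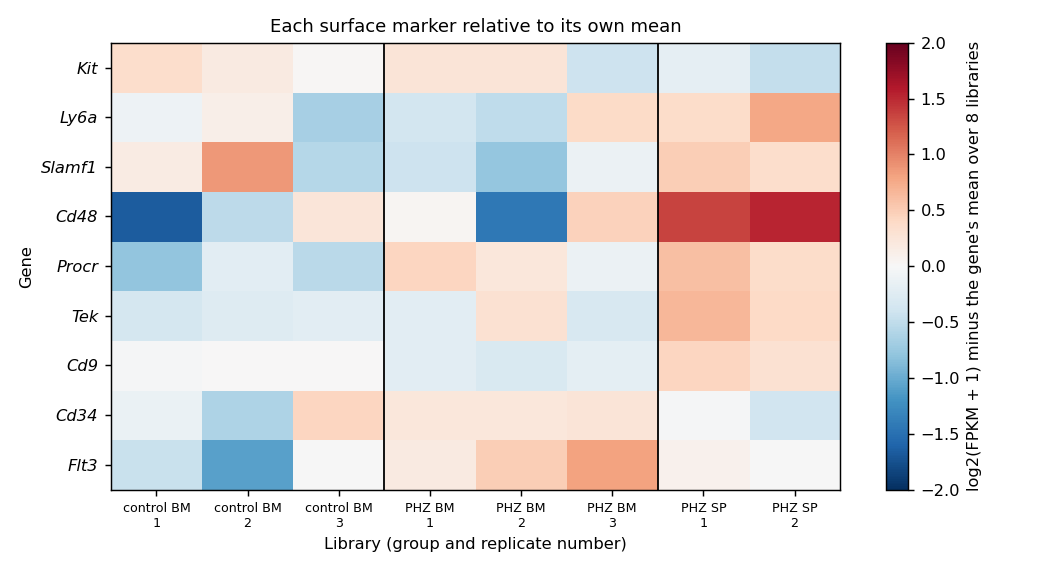
Log2(FPKM + 1) of each marker minus its own mean over the 8 libraries (colour, from -2 to 2), with libraries in columns by group and genes in rows. Cd48 shows the strongest colours, low in control BM HSC replicate 1 and PHZ BM HSC replicate 2 and high in both spleen libraries, and PHZ BM HSC replicate 3 has the opposite colour to the other 2 of its group in Kit and Ly6a.

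The genes whose level followed each member most closely were read from 3392 other genes at a mean of 10 FPKM or more, by Pearson's r over the same 8 libraries. Kit was followed by Spint2 (r = 0.91). Procr was followed by Snx15 and Shisa5 (0.96 each), Tek by Rnase6 (0.94) and Anxa5 (0.93), and Cd9 by Gbp3 (0.98) and Ppp4r3b (0.96). For Slamf1 they were Txnl1 (0.96) and Slc25a3 (0.95), for Cd48 Wdr82 and Osbpl9 (0.98 each), and for Ly6a Tsnax and Cdc16 (0.92 each). Cd34 was followed by Mir682 and Dpm3 (0.93 each), and Flt3 by Dnm2 and Rplp2 (0.98 each). Each of these is the highest or next highest of 3392 values over 8 points that share groups, so they describe these libraries only.

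Ligands, partners and adaptors of the members were listed at 26 of 27 genes, of which 19 were tested. None of the 19 was called in any comparison, by limma or by voom, and 2, 4 and 6 had an unadjusted p under 0.05 in PHZ BM HSC against control, spleen against PHZ BM HSC and spleen against control. Their median log2 fold changes were -0.05, 0.26 and 0.12. The most abundant were Cd81, a tetraspanin partner, and Angpt1, the ligand of Tie2.

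Other surface markers of HSCs were tested at 21 of 22 genes, and 3 of them rose in PHZ BM HSC over control BM HSC. Cd27, a receptor of the TNF receptor family, stood at 46.2, 46.2 and 55.2 FPKM in control BM HSC and 104, 91.4 and 89.3 in PHZ BM HSC, higher by 0.93 ± 0.14 on the log2 scale (adjusted p = 0.00477). Robo4, a guidance receptor of HSCs and endothelium, went from 3.65, 5.21 and 5.02 to 11.6, 10.8 and 8.94 FPKM (1.03 ± 0.21, adjusted p = 0.0279). Cd63, a tetraspanin, went from 126, 173 and 131 to 216, 196 and 253 FPKM (0.64 ± 0.15, adjusted p = 0.0478). Cd27 passed in all 17 alternatives run, Robo4 in 12 and Cd63 in 3, and of the 8 that leave out 1 library, Robo4 was lost without control BM HSC replicates 1 and 3 and PHZ BM HSC replicates 1 and 2, and Cd63 passed in 1, without control BM HSC replicate 2. In the 2 comparisons of the spleen none of the 21 was called by limma or voom, with 8 against PHZ BM HSC and 6 against control at an unadjusted p under 0.05. The list's median log2 fold changes were 0.11, -0.22 and 0.16.

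Surface markers of committed progenitors were tested at 17 of 22 genes. In PHZ BM HSC against control BM HSC 0 of 17 were called by limma or voom, in spleen against PHZ BM HSC 1 was called and in spleen against control BM HSC 4 were, all higher in the spleen. Ly6d, a marker of early B-lineage progenitors, was at 0.137, 0.595 and 0.627 FPKM in control BM HSC, 1.28, 0.429 and 2.08 in PHZ BM HSC, and 18.8 and 9.56 in PHZ SP HSC. It rose by 2.74 ± 0.39 over PHZ BM HSC (adjusted p = 0.0114) and by 3.33 ± 0.39 over control BM HSC (adjusted p = 0.00312). Against control BM HSC, the spleen also held more Cd24a (0.90 ± 0.16, adjusted p = 0.0326) and Tfrc, the transferrin receptor (2.04 ± 0.38, adjusted p = 0.0411). Without PHZ SP HSC replicate 1 none of these 5 calls stood, and without replicate 2 only that on Ly6d against control BM HSC did. Cd24a was also lost without control replicates 1 and 3 and PHZ BM HSC replicate 2, and Tfrc without control replicate 2 and PHZ BM HSC replicates 1 and 2, while voom called Ly6d in neither comparison. By flow cytometry the study found CD71, the protein of Tfrc, on a subset of splenic HSCs after PHZ. The list's median log2 fold changes were 0.37, 0.68 and 0.81, and 3, 10 and 11 members had an unadjusted p under 0.05. HSC-enriched genes of the cell interior or secreted were tested at 20 of 20, with none called by limma or voom in any comparison, 5, 2 and 3 at an unadjusted p under 0.05, and medians of 0.15, -0.06 and 0.24.

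Genes listed as markers of other cell types were, for several lists, higher in the spleen libraries in sum. The 10 lineage antigens summed to 16.4 to 17.9 FPKM in control BM HSC, 18.5 to 20.3 in PHZ BM HSC and 32.3 to 36.9 in PHZ SP HSC. None of the 4 that were tested was called by limma or voom, and 1, 2 and 3 had an unadjusted p under 0.05. Ly6c1, counted in the 2 and the 3, stayed under 1 FPKM in marrow (up to 0.462). It was tested only through its spleen values of 6.45 and 1.60. Ptprc, at the highest level of the list, encodes all forms of CD45 and not the B220 form alone, and Ly6g came next. Cd2 was at 0 in all 6 marrow libraries, and at 0 and 2.10 FPKM in PHZ SP HSC. Erythroid genes (10 of 12 listed) summed to 598 to 753, 569.8 to 710.3 and 1488 to 1619 FPKM, with Car2 and Hbb-bt the most abundant. The study reports erythroid genes, among them Slc4a1 and Ermap, as induced in sorted splenic HSCs after PHZ, also by quantitative PCR. Of the 10 genes 6 were called higher in spleen than in control BM HSC and 2, Hbb-bt (2.21 ± 0.33, adjusted p = 0.0126) and Slc4a1 (2.01 ± 0.31, adjusted p = 0.0140), than in PHZ BM HSC, and none of these calls held without PHZ SP HSC replicate 1 or without replicate 2. Of the 6 erythroid genes called against control BM HSC, Ermap stayed under 1 FPKM in marrow (up to 0.920). It was tested only through its spleen values of 2.52 and 3.88. Neutrophil genes (10 of 10 listed) summed to 429 to 737, 509 to 1057 and 1413 to 1802 FPKM, with S100a8 and S100a9 the most abundant. S100a8 rose in the spleen by 1.77 ± 0.32 against PHZ BM HSC (adjusted p = 0.0281) and by 1.72 ± 0.32 against control BM HSC (adjusted p = 0.0422), neither without PHZ SP HSC replicate 1 or 2, and Prtn3 rose in PHZ BM HSC over control BM HSC (0.96 ± 0.15, adjusted p = 0.00750), while its log2 difference of spleen against PHZ BM HSC was -0.59 (adjusted p = 0.155). In PHZ BM HSC against control BM HSC 6 of the 10 neutrophil genes were higher and 4 lower, among them Camp (-0.93, adjusted p = 0.293) and Ltf (-0.87, adjusted p = 0.244). In spleen 8 were higher and 2 lower than in PHZ BM HSC, and 10 were higher than in control BM HSC. Macrophage and monocyte genes (11 of 12 listed) summed to 8.99 to 19.7, 10.1 to 23.5 and 40.6 to 67.4 FPKM. The higher sum in spleen came from Cd68, which averaged 4.35, 10.5 and 46.0 FPKM, while Spic averaged 2.23, 1.71 and 2.02 and C1qb 1.92, 1.90 and 0.0411. Of the 6 genes tested, 2 were higher and 4 lower in spleen than in PHZ BM HSC and 3 were higher and 3 lower than in control BM HSC, at median log2 fold changes of -0.02 and 0.02, with none called by limma or voom and 2 at an unadjusted p under 0.05 in each comparison of the spleen.

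Endothelial genes, which bear on Tek and Procr because endothelium carries both receptors, summed to 31.3 to 43.9, 32.9 to 40.2 and 94.1 to 118 FPKM over 12 listed genes, Tek itself among them. Egfl7, which HSCs also express, and Cldn5 were the most abundant, and most of the higher sum in spleen was Cldn5, at 7.37, 12.6 and 0.989 FPKM in control BM HSC, 3.17, 4.74 and 7.26 in PHZ BM HSC, and 41.7 and 87.7 in PHZ SP HSC. It rose by 3.401 ± 0.65 over PHZ BM HSC (adjusted p = 0.0369) and 3.34 ± 0.65 over control BM HSC (adjusted p = 0.0470), neither without PHZ SP HSC replicate 1 or 2. Stab2, a receptor of sinusoidal endothelium, was at 0, 0.253 and 0.0178 FPKM in control BM HSC, 0.0327, 0.134 and 0.0177 in PHZ BM HSC, and 4.36 and 0.307 in PHZ SP HSC. Of the 12 genes, 4 (Cldn5, Stab2, Tek and Cdh5) were higher in both spleen libraries than in any marrow library, 1 (Flt4) was lower, and 7 overlapped. The share of all genes with this pattern was not computed. The lower spleen value and the highest marrow value were 0.0229 and 0.0184 FPKM for Cdh5 and 0.307 and 0.253 for Stab2, all under 1 FPKM. Kdr averaged 0.186, 0.897 and 0.306 FPKM in control BM HSC, PHZ BM HSC and PHZ SP HSC, Flt4 0.293, 0.232 and 0.0948, and Lyve1 0.257, 0.0327 and 0. Cdh5, Plvap and Sox17, the 3 of the list at 0 in all control libraries, stood at 0.255, 6.71 and 0.515 FPKM in PHZ SP HSC replicate 1 and at 0.0229, 0 and 0 in replicate 2, while Plvap was at 0.384, 0.268 and 0.389 in PHZ BM HSC. Over the 5 genes tested the median log2 fold change of the spleen was 0.12 against PHZ BM HSC and 0.24 against control BM HSC. T and NK cell genes (9 of 12 listed) summed to 20.5 to 61.6, 31.3 to 49.2 and 45.8 to 52.7 FPKM, with Nkg7 the most abundant. Of the 2 that were tested, Klrb1c rose in the spleen by 2.30 ± 0.28 against PHZ BM HSC (adjusted p = 0.00477) and by 3.19 ± 0.28 against control BM HSC (adjusted p = 0.000866), the first of which was lost without either spleen library, whereas Nkg7 averaged 36.7, 36.2 and 27.4 FPKM, with log2 differences of -0.36 (adjusted p = 0.731) and -0.26 (adjusted p = 0.775). B cell genes (9 of 10 listed) summed to 27.6 to 50.6, 29.5 to 31.3 and 41.1 to 54.7, with Cd79b and Cd79a the most abundant, and dendritic cell genes (9 of 9) to 66.2 to 73.4, 70.0 to 77.8 and 87.0 to 91.0, with Bst2 and Irf8 the most abundant. The 3 genes tested of each of these 2 lists were higher in spleen in both comparisons, with none called by limma or voom; at an unadjusted p under 0.05 were 2 and 2 of the B cell genes and 0 and 1 of the dendritic cell genes.

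Mast cell and basophil genes (8 of 9 listed), of interest because mast cells carry c-kit, summed to 40.9 to 48.3, 70.5 to 93.7 and 62.2 to 80.9 FPKM, and most of this was Gata2, a factor that HSCs also express, which rose in PHZ BM HSC (0.86 ± 0.16, adjusted p = 0.0180). Cpa3, the other gene tested, averaged 2.87, 4.38 and 1.696 FPKM, and neither was called by limma or voom in the spleen comparisons. Megakaryocyte genes (9 of 9) summed to 119 to 137, 80.6 to 91.6 and 82.2 to 135 FPKM, with Pf4 and Gp9 the most abundant. In PHZ BM HSC, the group in which Cd9 was lowest, Ppbp fell by 1.46 ± 0.30 on the log2 scale (adjusted p = 0.0265) and Pf4 by 1.06 ± 0.24 (adjusted p = 0.0424). Of the 7 genes tested 6 were lower and 1, the integrin gene Itgb3, was higher, at 4.98, 4.48 and 2.61 FPKM in control BM HSC and 8.08, 9.33 and 12.2 in PHZ BM HSC (1.13 ± 0.30, adjusted p = 0.0733), without overlap. Itga2b, which encodes the integrin CD41 and stands on the list of other HSC markers, averaged 15.6 and 25.04 FPKM with overlapping libraries (0.69 ± 0.36, adjusted p = 0.362). In the spleen, where Cd9 was highest, 3 of the 7 megakaryocyte genes were higher and 4 lower than in PHZ BM HSC (median log2 fold change -0.81, 6 at an unadjusted p under 0.05) and 2 higher and 5 lower than in control BM HSC (median -0.81, 4 at an unadjusted p under 0.05), with none called by limma or voom. Gp5 and Treml1 lay below every marrow library in both spleen libraries. Of the 8 fits that leave out 1 library, Ppbp passed in 3, Pf4 in 2 and Gata2 in 4. Stromal genes (8 of 10 listed; Pdgfrb and Cxcl12 highest) summed to between 1.93 and 7.21 FPKM in all 3 groups. The part of these other cell types in the differences of Cd48, Tek, Procr, Ly6a, Cd9 and Kit was not tested.

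**Figure D5:**
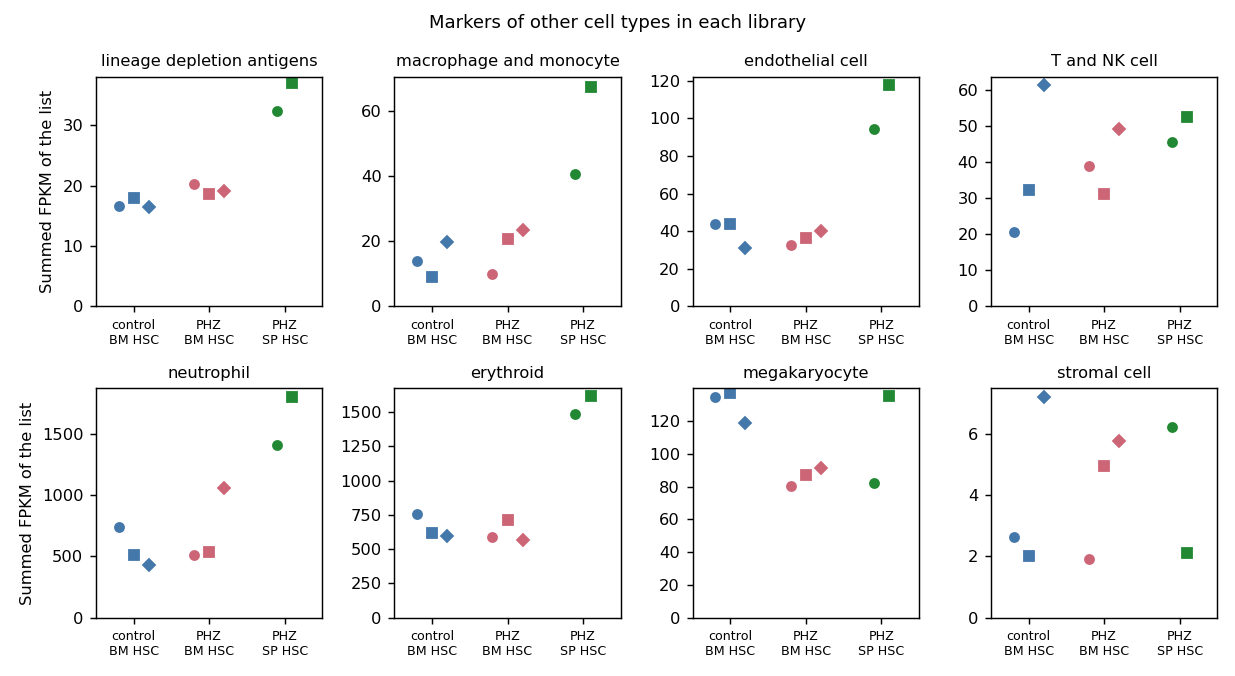
Summed FPKM (vertical axes starting at 0) of the listed marker genes of 8 other cell classes, 1 point per library, in control BM HSC, PHZ BM HSC and PHZ SP HSC. Lineage antigens, macrophage, endothelial, neutrophil and erythroid sums are higher in both spleen libraries than in any marrow library, and T and NK, megakaryocyte and stromal sums overlap.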

How the data were processed

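Cells sorted as HSCs were sequenced after SMART-Seq2 amplification and Nextera XT tagging, and per the labels the authors mapped reads to mm10 with STAR; the counting step and its use of strand are not given in the sources used here. The values used are FPKM, deposited by the authors in 1 table per group. The deposited tables of fold changes and p-values from the authors' DESeq2 comparisons were not used. Within a table each FPKM is a whole multiple of the value of 1 read, so reads were recovered: all 108151 values above 0 came out whole, with the largest gap to a whole number at 5.59e-09, while 358 genes may carry a whole-number multiplier. The tables had been scaled over different sets of libraries, and all 8 were brought to 1 set of median-of-ratios factors, which moved a library by at most 1.05%. There are no molecular identifiers, so precision from reads covers counting error only.

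Log2(FPKM + 1) of the genes at 1 FPKM or more in at least 2 libraries was fitted with limma 3.58.1 in R 4.3.3 (trend and robust options, 1 fit over 3 groups), with Benjamini-Hochberg adjustment. Differences are coded as the first group named minus the second. The script was tested on simulated data. Groups followed the sample labels, and the marrow columns, headed WBM, were matched to the marrow samples. Alternatives were another pseudocount, other filters, the FPKM as deposited, quantile normalization, voom, 2-group fits, no trend, a replicate block and leaving out each library. Positions and promoters came from RefSeq (GRCm38.p6), transcripts from GENCODE M21. The members and lists were chosen with earlier results of these data known. Named genes were the 9 members, of each other list the genes called (up to 4 per comparison), of marker lists the 2 most abundant, and for each member the 2 genes of highest r. Other genes of the marker lists that are named, such as Stab2, Kdr, Itgb3, Itga2b, C1qb, Gp5, Treml1, Camp and Ltf, were chosen after their values were seen. Some genes that the rule names are not reported here.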

Additional observations from a re-analysis of the deposited data

How the results depend on the processing

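The number of members called stayed at 0 in 47 of 51 refits. It was 1, Procr each time, for PHZ SP HSC against control BM HSC with voom (1) and with at least 10 reads in every library (1, with Cd48 not tested), and leaving out 1 library gave 0 to 1 in both comparisons with control BM HSC. Of 456 refitted member fold changes 442 kept direction and side of the threshold, 4 came to pass it and 10 turned sign. For PHZ BM HSC against control BM HSC these were Kit without the third PHZ BM HSC library, Cd48 without that library (-0.048) or the first control library, and Ly6a with quantile normalization (-0.068), without the third control library (-0.18) or without the third PHZ BM HSC library. Leaving out 1 library, Kit ran from -0.26 to 0.076, Cd48 from -0.17 to 0.90 and Ly6a from -0.23 to 0.22. For PHZ SP HSC against control BM HSC they were Slamf1 without the third control library and Cd34 with the replicate block (0.048), without the third control library or without the second spleen library (0.089). Here leaving out 1 library gave -0.10 to 0.62 for Slamf1 and -0.35 to 0.18 for Cd34. Of 765 refitted counts of calls in other lists 104 moved. The causes were not tested.

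Calls over all genes (311, 111 and 86 in the order of the report) fell to 205, 62 and 46 with no filter. They fell to 204 and 63 in the first 2 comparisons with no trend, and to 65 in the second with voom. In the third they fell to 39 with a pseudocount of 0.1, 55 with quantile normalization and 44 with the 2 groups only. In the first comparison they fell to 182 without control BM HSC replicate 1, and to 119 and 115 without PHZ BM HSC replicates 1 and 2. In the second they fell to 20 and 30 without PHZ BM HSC replicates 1 and 2 and to 7 and 6 without PHZ SP HSC replicates 1 and 2. In the third, the same 4 gave 44, 33, 14 and 27, and control BM HSC replicate 2 left out gave 43. Deviations of same-numbered libraries from their group means correlated at r of -0.01 to 0.06. With so few libraries per group, this cannot tell whether same-numbered libraries shared a mouse or a sort. Under the replicate block 294, 112 and 73 genes and 0 members were called. The marrow levels of Cd48 rest on 0 to 52 reads.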

Other observations

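The proportion of Kit to Flt3 mRNA, c-kit being shared by stem and progenitor cells and Flt3 being a progenitor receptor, was 37.6, 61.2 and 20.8 in control BM HSC, 21.2, 16.5 and 8.14 in PHZ BM HSC, and 16.8 and 14.5 in PHZ SP HSC. Both spleen libraries lay below all control libraries, and PHZ BM HSC replicate 1 lay just above the lowest control. The proportion of Procr to Flt3 was 8.11, 22.4 and 6.79 in control BM HSC, 11.6, 7.83 and 4.87 in PHZ BM HSC, and 14.1 and 12.8 in PHZ SP HSC, with all groups overlapping the control range. Neither ratio was tested.

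Anxa5, which followed Tek, averaged 109 ± 1.67, 131 ± 21.7 and 194 ± 1.31 FPKM in control BM HSC, PHZ BM HSC and PHZ SP HSC (SD). Gbp3, an interferon-inducible GTPase that followed Cd9, averaged 11.4 ± 1.87, 7.02 ± 0.495 and 21.2 ± 1.33 FPKM in the same order.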
